A study of Mus musculus with 4 samples.

Results

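The fast-fibre contractile genes are the set of genes whose proteins give fast-twitch muscle fibres their speed of contraction and relaxation. The 10 genes examined were Myh1, Myh2, Myh4, Myl1, Mylpf, Tnnt3, Tnni2, Tnnc2, Atp2a1 and Pvalb. The list was made by name as fast-fibre genes, with earlier results of these data known. All 10 were measured, by 15 probe sets among 12422 tested probe sets, and all 15 were kept because no filter on level was applied. They were read in Crhr2 KO (Crhr2-/-) muscle and in muscle of WT (Crhr2+/+) littermates. Both groups were male mice aged 6.5 months on the C57BL/6x129 background, untreated and fed chow, and the tissue was gastrocnemius together with soleus. Each of the 4 Affymetrix U74Av2 arrays, which detect a transcript through groups of short oligonucleotides called probe sets, carried RNA pooled from 2 mice, so the 4 mice of a genotype gave 2 arrays. The p-values therefore rest on differences among pools and say nothing of animal-to-animal spread. No source used here describes the Crhr2 deletion or the share of soleus in each pool.

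Crhr2 encodes the type 2 receptor for corticotropin-releasing factor, which binds the urocortin peptides. In striated muscle, myosin heads pull on actin filaments when calcium released from the sarcoplasmic reticulum binds troponin C. Mammals carry separate genes for the slow and fast versions of most of these proteins, and the myosin heavy chain is used to type a fibre: Myh7 marks slow type I fibres, Myh2 type IIA, Myh1 type IIX and Myh4 type IIB. The mouse gastrocnemius consists largely of fast fibres, while the soleus is rich in slow and IIA fibres. In a whole-muscle extract a smaller share of fibres of a type and less RNA per fibre cannot be told apart.

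The fast heavy chain genes are neighbours on mouse chromosome 11, in the order Myh3, Myh2, Myh1, Myh4 and Myh8 among protein-coding genes. Their upstream sequences are shown because the choice among these genes defines the fast fibre types, and the 3 windows share a run of letters. Each is the 250 bases before the annotated start, on the plus strand of GRCm38.p6 from RefSeq, and lies at chr11:67237562-67237811 for Myh4, chr11:67199852-67200101 for Myh1 and chr11:67170777-67171026 for Myh2. Capitals mark the longest run present in all 3 windows and, where it occurs, TATAAAA.
Myh4: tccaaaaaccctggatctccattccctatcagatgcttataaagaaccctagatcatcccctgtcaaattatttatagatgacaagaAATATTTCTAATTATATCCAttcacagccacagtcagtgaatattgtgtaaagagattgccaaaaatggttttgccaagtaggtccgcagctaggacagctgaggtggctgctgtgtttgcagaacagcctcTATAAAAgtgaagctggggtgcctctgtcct
Myh1: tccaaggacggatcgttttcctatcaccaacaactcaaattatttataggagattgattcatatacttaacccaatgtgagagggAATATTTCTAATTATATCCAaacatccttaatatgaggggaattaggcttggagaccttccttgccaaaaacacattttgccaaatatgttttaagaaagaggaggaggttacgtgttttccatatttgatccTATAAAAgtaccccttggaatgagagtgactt
Myh2: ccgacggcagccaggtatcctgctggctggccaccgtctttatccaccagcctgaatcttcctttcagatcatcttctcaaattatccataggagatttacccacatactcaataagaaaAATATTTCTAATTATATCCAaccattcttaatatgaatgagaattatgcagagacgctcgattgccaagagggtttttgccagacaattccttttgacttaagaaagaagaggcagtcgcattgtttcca

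The shared run is 20 bases long and begins 163 bases before the annotated start in Myh4, 165 in Myh1 and 130 in Myh2. Of 32851 upstream windows of the same length in the RefSeq set, 3 hold it on either strand, and these are the windows printed above. In pairwise alignments the Myh1 and Myh2 windows had 76.1% of aligned bases identical, the Myh4 and Myh2 windows 68.6% and the Myh4 and Myh1 windows 67.4%. Upstream windows were found for 8 of the 10 genes, 9 windows in all because Pvalb has a pair of annotated starts. On either strand, TATAAAA was found in 2 of the 9 windows (Myh1 and Myh4), against 4.98% of all windows. The binding element of the myogenic MEF2 factors occurred in 3 of the 9 (Myh1, Myh4 and 1 Pvalb start), against 2.92% of all windows. The E-box CANNTG, bound by MyoD-type factors, occurred in 6 of the 9, against 66.2% of all windows, and the CArG box in 1 (Myh4), against 1.47%. The motifs were searched separately and their matches may overlap. These matches describe letters in the windows and not sites of binding.

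The arrays had been scaled to a common level before deposit. Array medians were 67.6 and 71.2 in KO and 69.2 and 68.4 in WT, in arbitrary intensity units. The trimmed mean of 200.2 on each array reflects that scaling and is no check of likeness. Crhr2 itself, on its brighter probe set, read 100.4 and 75.1 in KO, against 154 and 192 in WT. Its dimmer probe set read 36.7 and 22.7 in KO, against 18.8 and 45.3 in WT, and there the genotypes overlapped. Both are a limited check of the labels because no source used here places the probes relative to the deletion. Of the muscle-defining genes fixed for the check of the tissue, Ckm, Mb, Acta1 and Des were measured and all 4 were above the median of the table. Markers of other tissues differed between the pools. All 9 measured exocrine pancreas markers had a higher mean in KO, with a summed intensity of 12975 and 3589 in KO, against 1521 and 1452 in WT. All 9 measured liver markers had a lower mean in KO, with a summed intensity of 379 and 483 in KO, against 888 and 2103 in WT. Only 4 of these 9 were above the table median, and Alb alone read 230 and 1016 in WT. Other marker lists went both ways. Means were higher and lower in KO for 2 and 3 adipocyte, 2 and 5 endothelial, 4 and 2 lymphocyte, and 4 and 1 nerve markers. Signals of 3' over 5' control probes were higher in KO, at 0.729 and 0.866 in KO and 0.624 and 0.686 in WT for actin. The part of these differences in the values below was not tested.

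KO means of the fast-fibre genes lay between 89.1% and 108% of the WT means on the 12 probe sets that were brighter than the median of the table, and none differed past the test. Of the 15 probe sets, 9 had a higher and 6 a lower mean in KO, and the median log2 fold change was 0.01, beside 0.00 over all tested probe sets. Of the 15, 0 had an adjusted p under 0.05 (limma, Benjamini-Hochberg over all tested probe sets, smallest adjusted p = 0.908), against 0% of all 12422 probe sets. At an unadjusted p under 0.05 there were also 0 of 15, against 5.43% of all probe sets. The KO and WT arrays did not overlap for 4 of the 15 (26.7%), against 34.6% of all probe sets, so a share near the background separated the genotypes. Log2 fold changes below are KO minus WT on the log2(intensity + 14) scale with their standard errors, and each ± after a group mean is the SD of its 2 arrays. An intensity is specific to its probe set, so values of different probe sets are not levels that can be set against each other. By their names, 7 of the 15 probe sets belong to classes for sequence families or for shared or limited sequence. These are the dimmer Myh4, the dimmer Mylpf and the brighter Tnnc2 probe set, and both probe sets of Atp2a1 and of Pvalb. How far these also read related transcripts was not tested.

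**Figure D1:**
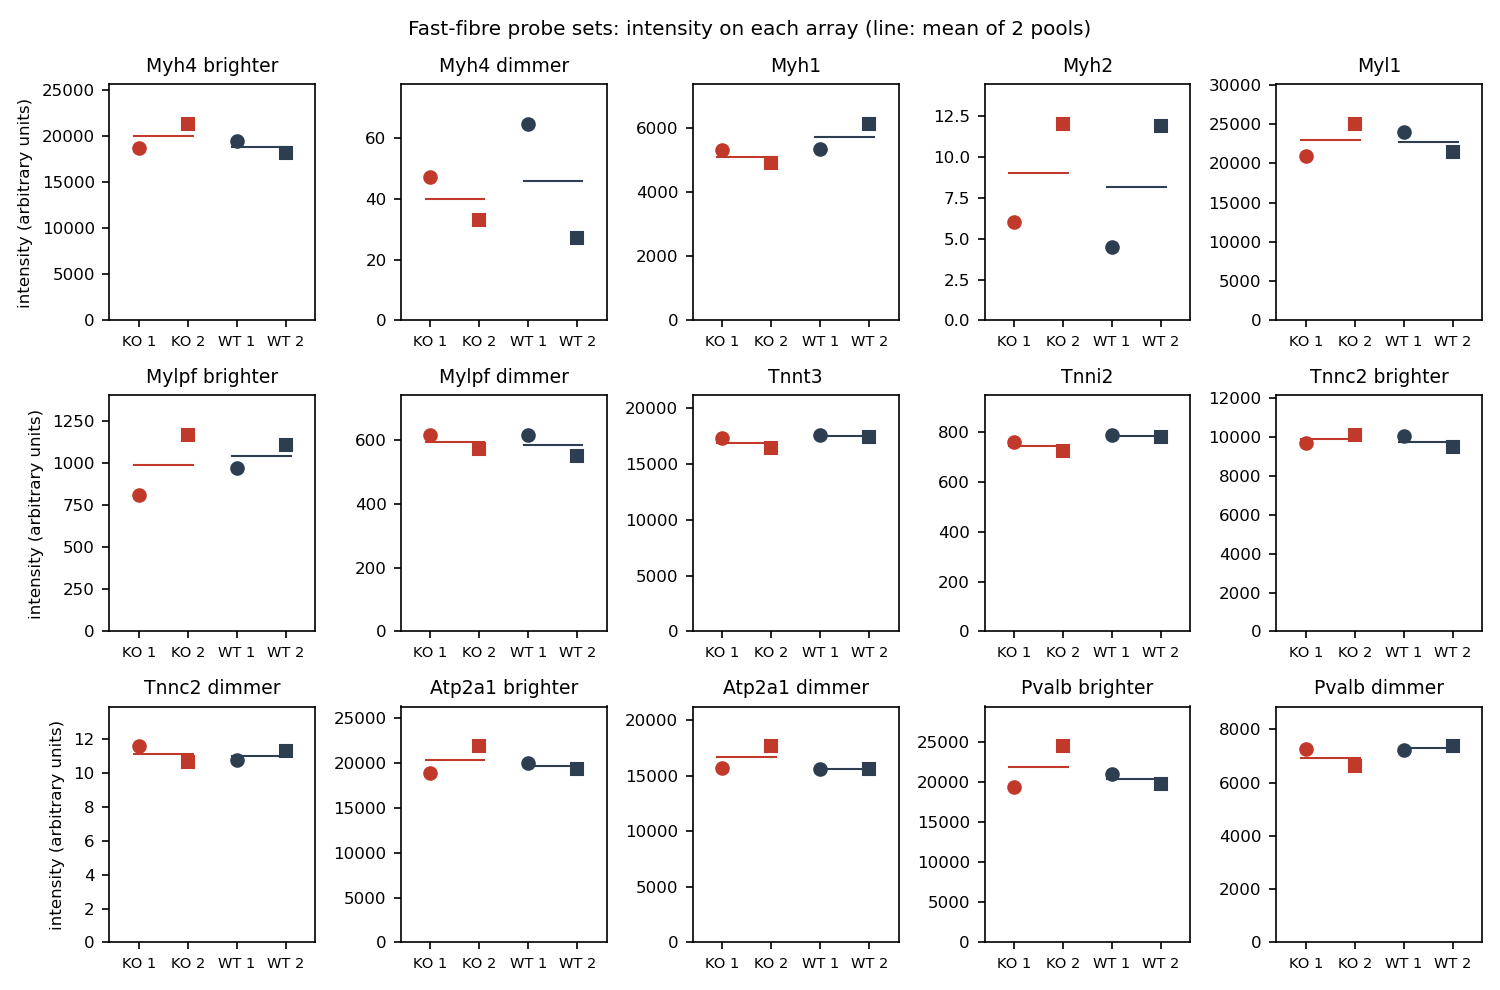
Intensity in arbitrary units of each of the 15 fast-fibre probe sets on the 2 KO arrays (red, left) and 2 WT arrays (dark, right), with circles for replicate 1, squares for replicate 2 and a line at each genotype's mean. Each vertical axis starts at 0 and has its own scale. For most probe sets the 4 points lie close together, and the wide panels, the dimmer Myh4 probe set and Myh2, are among the dimmest.

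Among the myosin heavy chains, Myh4 (Entrez gene 17884), the motor of type IIB fibres, read 18679 and 21337 in KO muscle, against 19419 and 18195 in WT muscle on its brighter probe set. KO replicate 2 was the highest array, KO replicate 1 lay between the WT arrays, and the groups overlapped. The mean was 20008 ± 1879 in KO and 18807 ± 866 in WT, and the log2 fold change was 0.09 ± 0.14 (95% confidence interval from -0.25 to 0.42, adjusted p = 0.948 by limma). The other Myh4 probe set was dim, at 47.1 and 32.9 in KO and 64.7 and 27.2 in WT. It moved over a 2.38-fold range with both extremes in WT, so it added little on the genotypes.

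Myh1 (Entrez gene 17879), the heavy chain of type IIX fibres, had the largest difference among the probe sets above the median of the table. It read 5295 and 4902 in KO, against 5323 and 6120 in WT. Both KO arrays were below both WT arrays, but KO replicate 1 and WT replicate 1 differed by less than the WT arrays did from each other. The mean in KO was 89.1% of that in WT, with a log2 fold change of -0.16 ± 0.12 (95% confidence interval from -0.45 to 0.13, adjusted p = 0.908 by limma). The exact two-sided permutation p was 0.333, the smallest that 2 against 2 arrays allow. Without WT replicate 2 the difference was -0.06, and without WT replicate 1 it was -0.26.

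Myh2 (Entrez gene 17882), the heavy chain of type IIA fibres, was at the low end of the arrays. Its only probe set read 6.02 and 12.05 in KO and 4.49 and 11.91 in WT, with the lower value in replicate 1 of both genotypes. It stood at percentile 12.5 of the arrays' brightness on average, and no detection calls were at hand. Whether IIA myosin differed was not detectable from this probe set: the log2 fold change was 0.06 ± 0.27, with a 95% confidence interval from -0.60 to 0.72.

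The fast light chains, which brace the lever arm of the myosin head and tune its stroke, did not separate the genotypes. Myl1 (Entrez gene 17901), the essential light chain of fast fibres, was the brightest of all tested probe sets. It read 20930 and 25051 in KO, against 23984 and 21523 in WT. The KO arrays were the lowest and the highest of the 4, and the WT arrays lay between them. The means were 22991 ± 2914 in KO and 22754 ± 1740 in WT, a log2 fold change of 0.01 ± 0.15 (95% confidence interval from -0.36 to 0.39, adjusted p = 0.995 by limma).

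Mylpf (Entrez gene 17907), the phosphorylatable regulatory light chain of fast fibres, was read by a pair of probe sets that ranked the arrays differently. On the brighter one it read 812 and 1168 in KO, against 972 and 1110 in WT. The KO pools differed from each other by 0.52 on the log2 scale, the widest gap between same-genotype pools among the 12 probe sets above the table median. Its log2 fold change was -0.09 ± 0.18. On the dimmer one it read 617 and 572 in KO, against 617 and 551 in WT, a log2 fold change of 0.03 ± 0.12. Here replicate 1 was the higher array in both genotypes, and the groups overlapped on both probe sets.

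The troponin complex sits on the actin filament and makes contraction depend on calcium. Tnnt3 (Entrez gene 21957), the fast subunit that ties the complex to tropomyosin, read 17299 and 16438 in KO, against 17585 and 17366 in WT. Both KO arrays were below both WT arrays by a small margin, the KO mean being 96.5% of that in WT. Its log2 fold change was -0.05 ± 0.12 (95% confidence interval from -0.35 to 0.25, adjusted p = 0.964 by limma). Tnni2 (Entrez gene 21953), the fast inhibitory subunit, read 761 and 725 in KO, against 788 and 781 in WT. Its log2 fold change was -0.08 ± 0.10 (95% confidence interval from -0.33 to 0.17, adjusted p = 0.937 by limma), with both KO arrays again the lower ones. Tnni2 was the only 1 of the 12 probe sets above the table median whose genotype difference exceeded both differences between same-genotype pools, against 23.0% of all 6199 such probe sets.

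Tnnc2 (Entrez gene 21925), the fast calcium-binding subunit, had the narrowest range of these 12 probe sets. Its brighter probe set read 9680 and 10113 in KO, against 10037 and 9499 in WT. The highest array was 1.06 times the lowest, the groups overlapped, and the log2 fold change was 0.02 ± 0.11 (95% confidence interval from -0.25 to 0.29). The dimmer probe set read 11.6 and 10.6 in KO and 10.7 and 11.3 in WT, at percentile 16.6 of brightness, and its log2 fold change was 0.01 ± 0.23.

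Relaxation depends on removing calcium from the cytoplasm. Atp2a1 (Entrez gene 11937) encodes SERCA1, the calcium pump of the fast sarcoplasmic reticulum, and read 18828 and 21894 in KO, against 20035 and 19318 in WT on its brighter probe set. The KO arrays were again the lowest and the highest, and the log2 fold change was 0.05 ± 0.14. On the other Atp2a1 probe set the values were 15647 and 17683 in KO, against 15553 and 15582 in WT. Both KO arrays were above both WT arrays there, though KO replicate 1 only by a margin of under 1%, and the log2 fold change was 0.10 ± 0.13 (95% confidence interval from -0.22 to 0.41, adjusted p = 0.937 by limma).

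Pvalb (Entrez gene 19293) encodes parvalbumin, a soluble calcium buffer abundant in the fastest rodent fibres. Its brighter probe set read 19328 and 24527 in KO, against 20966 and 19711 in WT. KO replicate 2 was the highest array and KO replicate 1 the lowest, and the log2 fold change was 0.10 ± 0.16 (95% confidence interval from -0.29 to 0.49, adjusted p = 0.949 by limma). The dimmer probe set read 7249 and 6619 in KO, against 7222 and 7383 in WT, with KO replicate 2 as the lowest array. Its log2 fold change was -0.08 ± 0.11, so the 2 Pvalb probe sets placed KO replicate 2 at opposite ends.

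**Figure D2:**
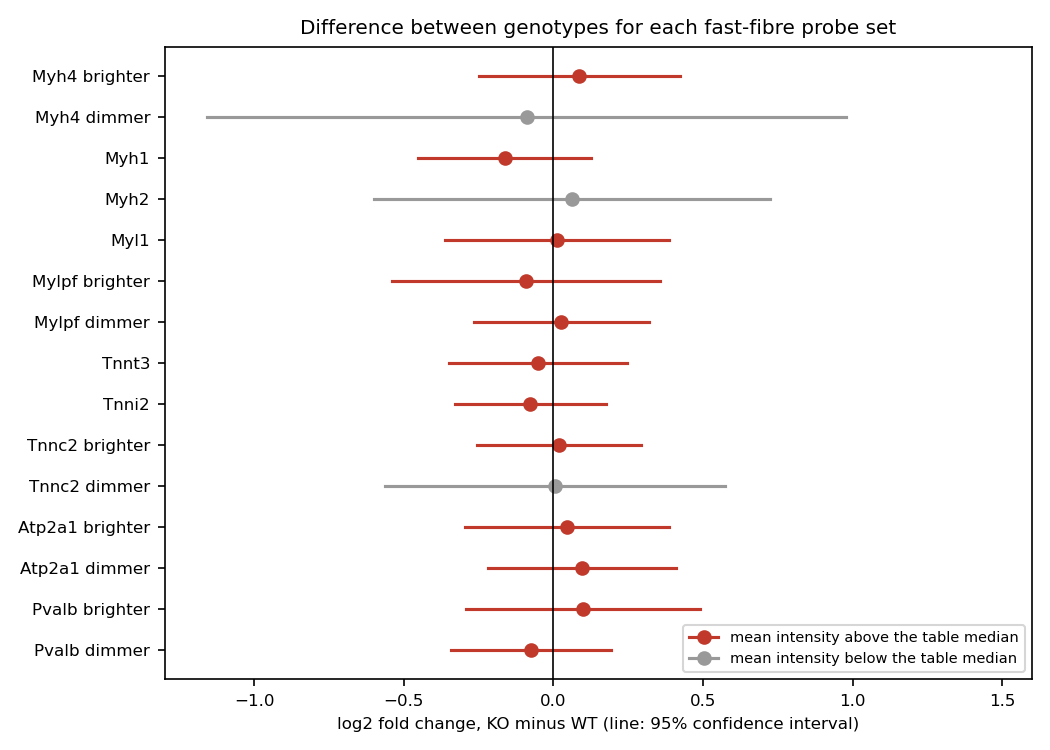
Log2 fold change, KO minus WT, of each fast-fibre probe set (point) with its 95% confidence interval from the limma fit (line), ordered from heavy chains to parvalbumin, for probe sets with a mean intensity above (red) or below (grey) the median of the table. All 15 intervals include 0, and the 3 grey intervals, the dimmer Myh4 and Tnnc2 probe sets and Myh2, reach past 0.57 or below -0.56.

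The intervals bound how large a difference these arrays could have missed. Over the 12 probe sets above the table median, the lowest bound of a 95% interval was 0.688 times WT (the brighter Mylpf probe set) and the highest 1.40 times WT (the brighter Pvalb probe set), without adjustment for the number of probe sets. The median absolute log2 difference was 0.08 between genotypes, against 0.15 between the KO pools and 0.08 between the WT pools of the same probe sets. A genotype difference is between means of arrays and a pool difference between single arrays, which vary more than means. The medians are therefore unlike measures, and their order does not show whether the genotypes differed more or less than same-genotype pools. Over all 6199 probe sets above the table median these medians were 0.15 between genotypes, 0.20 between KO pools and 0.19 between WT pools. At a threshold on level equal to the table median, 3 of the 15 probe sets would be left out, which read at most 64.7 on any array.

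Of the 6 fast-fibre probe sets with a mean of at least 10000, those of Myl1, Pvalb, Myh4 and Atp2a1 (5 probe sets) were highest in KO replicate 2, while Tnnt3 was lowest there. Over the 6, their median log2 difference from the mean of the 4 arrays was -0.07 and 0.14 in KO replicates 1 and 2, against 0.00 and -0.07 in WT replicates 1 and 2. For the 25 other probe sets of that brightness it was -0.06 and 0.06 in KO, against 0.02 and -0.03 in WT. Of those 25, 19 were highest in KO replicate 2 and 17 lowest in KO replicate 1. The higher reading of KO replicate 2 in 5 of the 6 was therefore shared by most bright probe sets outside the fast-fibre list. With each array centred on those 25, the median log2 fold change of the 15 fast-fibre probe sets was 0.0055. This comparison was chosen after the values were seen.

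**Figure D3:**
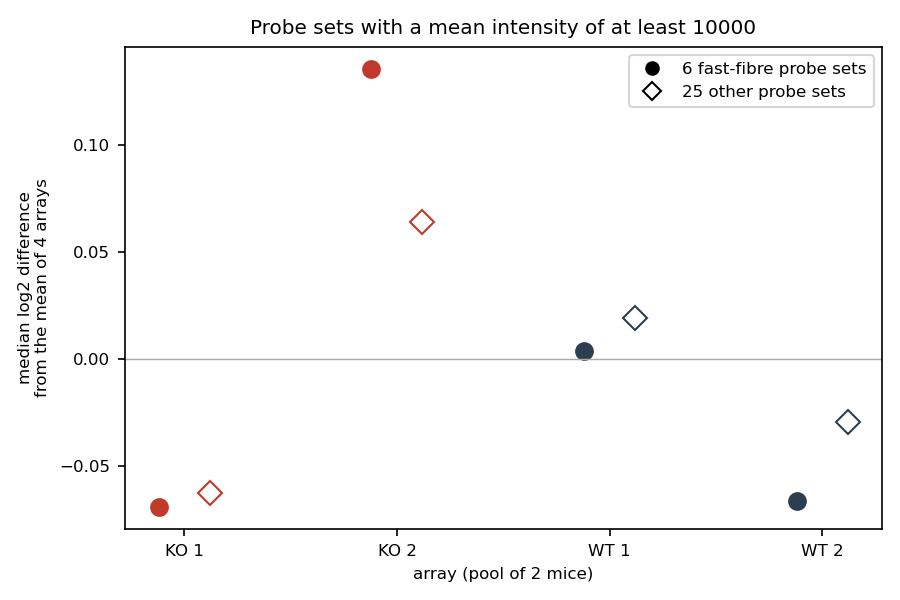
Median log2 difference from the mean of the 4 arrays for the 6 fast-fibre probe sets (filled circles) and the 25 other probe sets (open diamonds) with a mean intensity of at least 10000, in KO (red) and WT (dark). Both sets are highest in KO replicate 2, at 0.14 and 0.06. In KO replicate 1 they lie at -0.07 and -0.06, and the fast-fibre set lies at -0.07 in WT replicate 2 as well.

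The slow versions of the same proteins varied more between pools than the fast ones did. All 7 slow counterparts were measured, by 9 probe sets, 8 of them above the table median. WT replicate 1 was the lowest array for all 8, and the highest array was 1.48 to 2.11 times the lowest, against 1.06 to 1.44 times for the 12 fast-fibre probe sets. The median absolute log2 difference between the WT pools was 0.78 for the 8 slow probe sets, against 0.08 for the 12 fast ones. Between the KO pools it was 0.29 for the slow and 0.15 for the fast probe sets. No test was made of this difference between lists.

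Myh7, the slow type I heavy chain, read 3452 and 2872 in KO, against 1968 and 3666 in WT on its brighter probe set. Tnnc1, the slow and cardiac troponin C, read 1304 and 1052 in KO, against 742 and 1567 in WT. The slow light chains were also lowest in WT replicate 1: Myl2 read 3699 and 3218 in KO, against 2921 and 4431 in WT. Myl3 read 2381 and 2063 in KO, against 1550 and 2693 in WT. In each of these genes both KO arrays lay between the WT arrays, so the genotypes overlapped.

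Slow troponin T, Tnnt1, read 4153 and 3255 in KO, against 2338 and 3999 in WT on its brighter probe set. Slow troponin I, Tnni1, read 1570 and 1356 in KO, against 1013 and 1783 in WT. The slow and cardiac calcium pump Atp2a2 read 890 and 624 in KO, against 576 and 907 in WT. The brighter Tnnt1 probe set was thus the only one of these 3 with its highest value in KO replicate 1. None of the 7 genes passed the test (smallest adjusted p = 0.913 by limma), and 6 of 7 had a higher mean in KO with a median log2 fold change of 0.12.

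Ratios of a fast gene to its slow counterpart were taken within each array. The slow gene covered a wider range over the 4 arrays than the fast gene in all 9 pairs on the log2(intensity + 14) scale, and in 8 of 9 on intensities without the pseudocount. The exception was the dim Myh2, whose highest intensity was 2.68 times its lowest, against 1.86 times for Myh7. For Mylpf over Myl2 the log2 ranges were close, at 0.52 for Mylpf and 0.60 for Myl2. The log2 ratio was highest in WT replicate 1 in 7 of 9 pairs. For Tnnc2 over Tnnc1 it was 2.88 and 3.25 in KO, against 3.73 and 2.59 in WT. Tnnt3 over Tnnt1 gave 2.05 and 2.33 in KO, against 2.90 and 2.11 in WT. Such ratios compare arrays and do not measure how many fast or slow molecules were present. The Myh7, Tnnt1 and Atp2a2 probe sets used in them also belong to the sequence family or shared classes.

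For the heavy chains, the log2 ratio of Myh4 to Myh7 was 2.43 and 2.89 in KO, against 3.29 and 2.31 in WT. That of Myh1 to Myh7 was 0.61 and 0.77 in KO, against 1.43 and 0.74 in WT, the largest genotype difference of the 9 pairs at -0.39. The mean ratio was lower in KO in 8 of 9 pairs, the exception being Atp2a1 over Atp2a2 at 0.00. The Myh4, Myh1 and Myh2 pairs share the same Myh7 probe set, and all 7 slow genes were lowest in WT replicate 1. The 9 pairs are therefore not separate observations, and counts over them are not repeated evidence. In every pair the KO and WT arrays overlapped, and the exact two-sided permutation p was 0.667 or 1, each with an adjusted p of 1 over the 9 pairs. The median difference over the pairs was -0.14, and leaving out KO replicate 1 or 2 gave 0.09 or -0.37, while leaving out WT replicate 1 or 2 gave 0.22 or -0.60, so its sign depended on which pool was left out. The part of unequal amounts of soleus in the pools in these ratios was not tested.

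**Figure D4:**
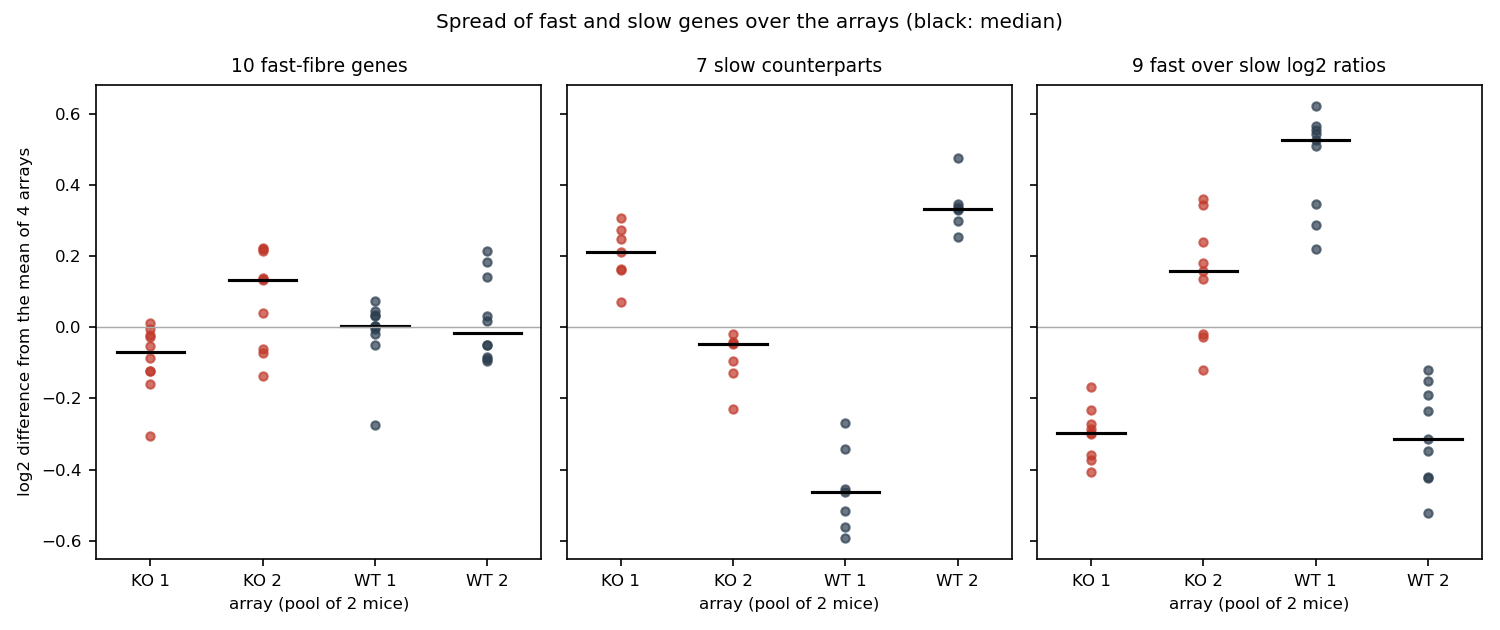
Log2 difference from the mean of the 4 arrays for the 10 fast-fibre genes (left, brightest probe set of each), their 7 slow counterparts (middle) and the 9 fast over slow log2 ratios (right), by array, with KO in red, WT in dark and the median as a black line. The slow genes span a wider range than the fast ones and are all lowest in WT replicate 1, where 7 of 9 ratios are highest.

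No other gene typical of fast fibres passed the test. Of 10 listed genes for fast-fibre structure and glycolysis, 9 were measured, 6 with a higher and 3 with a lower mean in KO. Their log2 fold changes had a median of 0.00, and 0 passed the test. Gpd1, the glycerol-3-phosphate dehydrogenase that passes glycolytic electrons on, had the smallest p and the largest change of the list. It read 1616 and 1409 in KO, against 2129 and 1608 in WT, a log2 fold change of -0.29 ± 0.16 (adjusted p = 0.908 by limma). KO replicate 1 was the lowest array for 8 of the 9 genes and KO replicate 2 the highest for 7, the order also seen in the very bright probe sets. Those bright probe sets were not chosen to leave these 9 genes out, so the 2 observations are not separate.

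Of 15 sarcomere genes listed as not particular to the fast or slow versions above, 11 were measured, 4 with a higher and 7 with a lower mean in KO. Whether each of them, Myom2 among them, is used alike by all fibre types was not tested. Their log2 fold changes had a median of -0.11, and 0 passed the test. In 5 of the 11 both KO arrays were below both WT arrays, against 17.6% of all probe sets. Myom2, a protein of the M-band that ties thick filaments together, had the smallest p and largest change. It read 3583 and 2703 in KO, against 4658 and 3901 in WT, a log2 fold change of -0.45 ± 0.17 (unadjusted p = 0.0334 and adjusted p = 0.857 by limma). Both KO arrays were thus below both WT arrays for Myom2, and the difference failed the correction over all probe sets.

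The mean profile of the 10 fast-fibre genes over the 4 arrays was nearly flat, at -0.09 and 0.08 in KO, against -0.02 and 0.02 in WT on the log2 scale. Each gene counted equally, so the dim Myh2 weighed as much as the bright genes. Its own differences from its mean were wide, at -0.16 and 0.22 in KO and -0.27 and 0.21 in WT. The profile and the distances to it therefore rest partly on that dim probe set. The genes of other kinds nearest to it among 4838 compared were Dad1, Sncb, Sun1, Cystm1 and Sirt3, at root mean square distances of 0.0033 to 0.013 over 4 arrays. The fast-fibre genes themselves lay farther from their mean, from 0.044 for Atp2a1 to 0.18 for Myh2. Between 108 and 2614 of the compared genes were nearer to the mean profile than the fast-fibre genes were.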

How the data were processed

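Total RNA of pooled gastrocnemius and soleus was labelled with biotin and hybridised to Affymetrix U74Av2 arrays, per the labels' protocols. The deposited table holds 1 linear intensity per probe set and array, which the authors had already scaled between arrays, as the equal trimmed means show. The summary algorithm, background correction and genome build are stated by no source used here. Groups come from the sample titles, since the labels exchange the genotype and tissue fields.

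Of 12488 probe sets, 66 controls were left out and 12422 tested without a filter on level. The platform annotation gave 10833 of them 1 gene symbol, 396 several and 1193 none, and genes were named only from the first kind, with symbols updated through gene identifiers of GRCm38.p6 (10817 matched). A pseudocount of 14, which is 20% of the table median, was added before the log2 step, which understates fold changes at low intensity. KO was compared with WT in limma 3.58.1 under R 4.3.3 by lmFit and eBayes, with the variance prior following intensity. The two-sided p-values of all 12422 probe sets were adjusted together by Benjamini-Hochberg, and 0.05 was the threshold. The method was tested on simulated data. The number of arrays limits the precision.

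The fast-fibre genes and the other lists were chosen with earlier results of these data known. By rule, all probe sets of the 10 genes were named, and each slow counterpart gene by its brightest probe set. For each further list, except the tissue markers, the genes with the smallest p and the largest change above the table median were named. The 5 nearest genes to the mean profile were named too. Single values were tested by exact permutation over arrays. Promoters came from the RefSeq set and were aligned with Biopython 1.88. Alternatives were other pseudocounts, a filter on level, quantile or median scaling, no intensity trend, a replicate block and each array left out. Replicate numbers were taken as names of pools only, so the main fit held no block. The correlation of same-numbered deviations was 0.00345 over 12422 probe sets. Dim probe sets are included, so this value cannot show that the samples were unpaired.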

Additional observations from a re-analysis of the deposited data

How the results depend on the processing

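The count of fast-fibre probe sets past the threshold was 0, and that over all probe sets 0, under each of 11 alternatives, of which the filter on level tested 12 fast-fibre probe sets among 6199 and the others 15 among 12422. With the replicate block both counts were also 0, with smallest adjusted p of 0.871 and 0.255, so the block changed no call. Without 1 array both counts ran from 0 to 0. The median log2 fold change of the 15 probe sets ran from -0.021 to 0.059 with 1 array left out, the highest value being without WT replicate 1. The median fast over slow difference ran from -0.60 to 0.22 with 1 array left out. A fit without the intensity trend, the block and the filter keep the log2 fold change by construction. Of 75 refits of single probe sets with other pseudocounts or scalings, 3 changed sign, all of the dim Tnnc2 probe set, at -0.0012 with quantile normalization, -0.0055 with median centring and -0.00045 with centring on bright probe sets, the last added after the values were seen. Quantile normalization gives a probe set of equal rank on every array the same value by construction, so Myl1 and the brighter Pvalb probe set had a log2 fold change of 0, and it gave 0.013 for the brighter Myh4 and 0.011 for the brighter Atp2a1 probe set. With 1 array left out, 17 of 60 refits changed sign, in 10 of 15 probe sets, and 0 passed the threshold. The log2 fold change then ran from -0.18 to 0.30 for Myh2, -0.0091 to 0.18 for the brighter and -0.56 to 0.38 for the dimmer Myh4 probe set, and -0.12 to 0.14 for Myl1. It ran from -0.35 to 0.17 and -0.054 to 0.11 for the brighter and dimmer Mylpf probe sets, from -0.021 to 0.059 and -0.023 to 0.034 for those of Tnnc2, from -0.063 to 0.15 for the brighter Atp2a1 and from -0.073 to 0.27 for the brighter Pvalb probe set. Myh1, Tnnt3, Tnni2, the dimmer Atp2a1 and the dimmer Pvalb probe sets kept their sign in all of these. Arrays left alone in a genotype were assumed to vary like the other genotype. The signal over background of the dim Myh2, Myh4 and Tnnc2 probe sets limits what they can show.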

Other observations

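Genes that regulate fibre type, handle calcium or belong to immature fibres were also read. Of 14 listed regulators, 12 were measured, with 7 higher and 5 lower means in KO, a median log2 fold change of 0.01 and 0 past the test. Nfatc1, a calcineurin-dependent factor of slow fibres, read 111 and 120.4 in KO, against 165 and 153 in WT, a log2 fold change of -0.41 ± 0.20 (adjusted p = 0.908 by limma). Both KO arrays were below both WT arrays, and the difference failed the correction. Myog, a myogenic factor, read 112 and 49.9 in KO, against 106 and 110.2 in WT, so that its log2 fold change of -0.44 ± 0.38 rested on KO replicate 2.

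Of 10 listed calcium-cycling genes 5 were measured, with a median log2 fold change of 0.01. Hrc, a calcium-binding protein of the sarcoplasmic reticulum, read 2903 and 2949 in KO, against 2875 and 2694 in WT, a log2 fold change of 0.07 ± 0.10. Of the 6 developmental and cardiac myosin and troponin genes, 2 had a higher and 4 a lower mean in KO, with log2 fold changes of median -0.20 and 0 past the test. At an unadjusted p under 0.05 by limma there was 1 of the 6, against 5.43% of all probe sets. It was the cardiac troponin I gene Tnni3, named after its values were seen. This dim probe set read 51.3 and 43.4 in KO, against 8.53 and 9.64 in WT, a log2 fold change of 1.41 ± 0.32 (adjusted p = 0.803 by limma), and failed the correction. Only Myl4, an embryonic and atrial light chain, was above the table median. It read 67.9 and 181 in KO, against 131 and 162 in WT, with KO replicate 1 apart from the rest.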
